A study of Mus musculus with 9 samples.

Results

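The comparison described here sets large intestine in which the hairpin DHX9-1271 was switched on against large intestine with a control hairpin. Its members are the 6 arrays whose titles name these groups, 3 of DHX9-1271 and 3 of control, out of 9 arrays in the series. The other 3 carry a second hairpin, DHX9-837, and enter as the test of whether both hairpins gave the same values. All mice were C57BL/6 and carried rtTA, the protein through which doxycycline switches a hairpin on. The control genotype is labelled FLuc.1309/rtTA, and its hairpin is directed against firefly luciferase, a gene that mice lack. The knockdown genotype is labelled DHX9.1271/rtTA, and its hairpin is directed against Dhx9. The third genotype is DHX9.837/rtTA. Mice of every group drank water with doxycycline at 1 mg/ml and 5% sucrose for 14 days, beginning at 4 weeks of age, so control tissue was exposed to doxycycline too. Neither the promoter that drives rtTA nor the number of founder clones per line is given in the sources used here. Total RNA of whole large intestine was hybridised to Affymetrix Mouse Gene 2.0 ST arrays, and values are log2 signals of 1 probe set per gene.

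DHX9 is a helicase of the DExH-box family that unwinds double-stranded RNA, DNA and RNA-DNA hybrids. It works in transcription, in the export, translation and processing of RNA, including that of some microRNA precursors, and at sites of DNA replication. The lining of the large intestine is renewed from dividing cells at the base of the crypts, and the cells that leave the crypt become absorptive colonocytes, which take up water, salt and calcium, goblet cells, which make mucus, or hormone-secreting cells. Whole tissue RNA also contains muscle, connective tissue, vessels, nerves and immune cells. In such bulk samples, fewer cells of a type and less RNA per cell cannot be told apart.

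Across genes, the 6 pairs of arrays within a group had Pearson correlations from 0.979 to 0.995, and the 9 pairs of a control with a DHX9-1271 array had 0.978 to 0.987. The median SD within a group was 0.0896 in control and 0.0626 in DHX9-1271, so the control arrays were the more variable ones. The mean of 15 small intestine markers ranged from 6.99 to 8.36 in the control arrays and from 6.71 to 7.49 in the DHX9-1271 arrays. All 20 markers of absorptive colonocytes were measured above the level filter. Whether replicates are separate mice is not stated in the labels, and p-values then reflect only how far these samples spread, which may be technical. Below, array values are listed in the order of replicates 1, 2 and 3, a log2 fold is the DHX9-1271 mean minus the control mean, and a gene is said to have risen or fallen where the limma adjusted p was under 0.05.

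Dhx9 itself had log2 levels of 9.21, 9.18 and 9.32 in control and 8.27, 8.22 and 8.18 in DHX9-1271 (log2 fold -1.01, SE 0.0507, adjusted p = 4.91e-05, 95% interval -1.13 to -0.90). Every DHX9-1271 array lay below every control array, and the remaining signal was 49.6% of control (95% interval 45.8 to 53.7%). An exact two-sided permutation test over the 6 arrays gave p = 0.1, the smallest that 3 arrays against 3 allow. Of 16 DExH-box helicases tested, Dhx9 fell, 0 rose and 15 were not called.

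Of 16808 genes tested, 475 rose (2.83%) and 266 fell (1.58%), 4.41% in all. The counts of list members called, given below, are to be read against these shares. All of these called genes had 3 arrays on 1 side of all 3 control arrays, as did 25.5% of all genes tested. Most changes were small. The median log2 fold was 0.37 among genes that rose and -0.36 among genes that fell, and 72 rises and 46 falls reached 1.5-fold. At least 2-fold changes numbered 21 up and 19 down, of which 9 and 15 lay outside the antigen receptor genes. With arrays centred on their medians the counts were 388 up and 343 down, and with cyclic loess 424 and 364, so the split between rises and falls changed with the scaling. Without DHX9-1271 replicate 3 the counts were 77 and 51, the lowest of the 9 fits that each left out 1 array, and without control replicate 2 they were 431 and 283. A fit on the 6 arrays alone ended 61 of the 139 calls on genes named here.

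**Figure D1:**
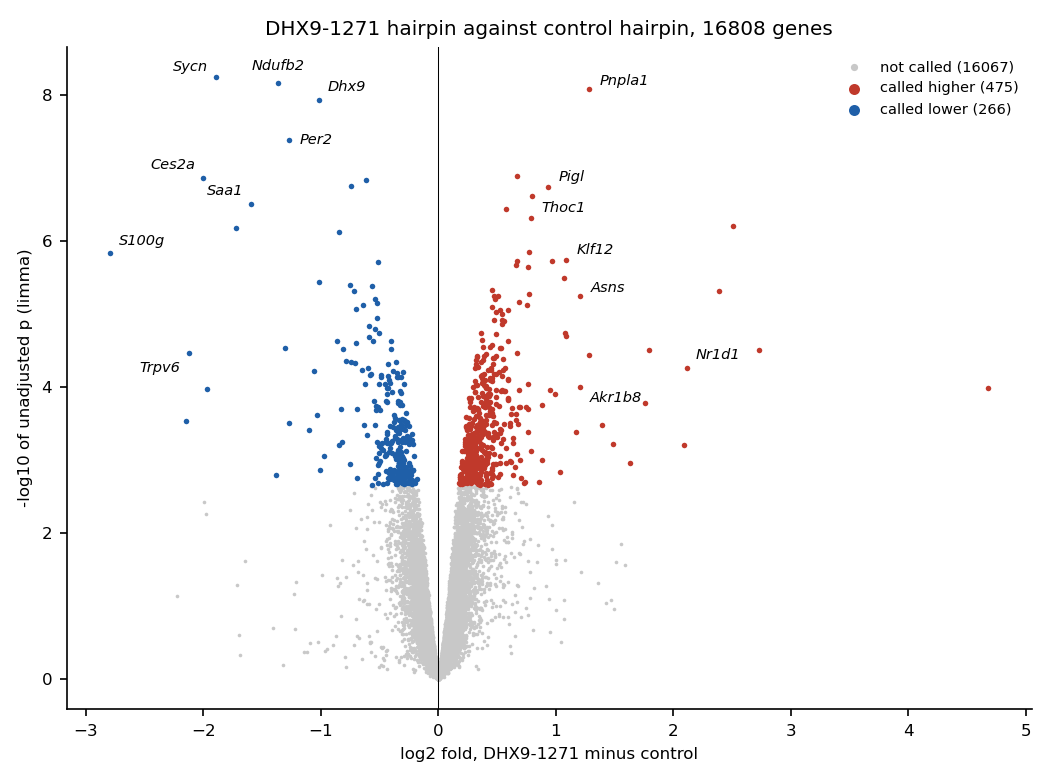
Log2 fold of DHX9-1271 over control (horizontal axis) against -log10 of the unadjusted limma p (vertical axis) for the 16808 genes tested, each point 1 gene, with the 475 rises in red and the 266 falls in blue. Among labelled genes S100g, Trpv6 and Ces2a lie farthest left and Nr1d1 farthest right, and the unlabelled points beyond Nr1d1 are antigen receptor genes.

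The largest falls among named genes were in calcium absorption. Calcium enters colonocytes through the channel TRPV6, is carried through the cell by calbindin-D9k, the product of S100g, and leaves by pumps and by a sodium-calcium exchanger. S100g had levels of 11.35, 11.34 and 11.41 in control and 8.86, 8.11 and 8.76 in DHX9-1271 (log2 fold -2.79, SE 0.246, adjusted p = 0.0013, 95% interval -3.35 to -2.23), a 6.92-fold fall with no overlap between groups. Trpv6 had levels of 10.42, 9.22 and 10.16 in control and 7.62, 7.96 and 7.85 in DHX9-1271 (log2 fold -2.12, SE 0.277, adjusted p = 0.00736, 95% interval -2.75 to -1.49), 4.36-fold lower, with control replicate 2 the lowest of its group. Slc8a1, the exchanger NCX1, fell by far less, with levels of 7.99, 8.01 and 8.07 in control and 7.76, 7.79 and 7.79 in DHX9-1271 (log2 fold -0.25, SE 0.0465, adjusted p = 0.0237). Of 9 measured genes of this list these 3 fell and 0 rose. The vitamin D receptor gene Vdr had a log2 fold of 0.066 (adjusted p = 0.457) and the calcium pump gene Atp2b1 one of 0.02 (adjusted p = 0.853). Trpv5, Calb1, Cyp24a1 and Cyp27b1 lay under the level filter. The mean of the 9 ranged from 9.26 to 9.48 in the control arrays and from 8.71 to 8.82 in the DHX9-1271 arrays. The calls on S100g and Trpv6 held in each of the 9 fits that left out 1 array. The call on Slc8a1 ended without control replicate 3 or any 1 DHX9-1271 array (adjusted p from 0.0557 to 0.0891).

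Carboxylesterases hydrolyse lipids, drugs and other esters, and 4 of 10 tested fell while 0 rose. Ces2a had levels of 9.01, 9.55 and 9.44 in control and 7.29, 7.35 and 7.35 in DHX9-1271 (log2 fold -2.0, SE 0.133, adjusted p = 0.000307), a 4-fold fall in which each DHX9-1271 array stood far below the lowest control. Ces1d had levels of 9.34, 9.17 and 9.45 in control and 8.50, 8.43 and 8.50 in DHX9-1271 (log2 fold -0.84, SE 0.0688, adjusted p = 0.000758). Ces2b had levels of 7.58, 7.54 and 7.67 in control and 6.71, 6.97 and 6.61 in DHX9-1271 (log2 fold -0.83, SE 0.137, adjusted p = 0.0152). Ces2e had levels of 10.45, 10.35 and 10.43 in control and 9.79, 9.995 and 9.87 in DHX9-1271 (log2 fold -0.52, SE 0.0595, adjusted p = 0.00391). Near-identical copies such as the Ces2, Saa, Gsdmc and Hspa1 genes may share probe signal, so the value of a single copy is uncertain. The groups did not overlap for any of the 4 carboxylesterases that fell, as for every called gene. The list's median log2 fold was -0.40 against 0.0057 over all genes tested. Among 16 cytochrome P450 genes in the list, Cyp3a13 fell (log2 fold -0.34, adjusted p = 0.0413) and Cyp2s1 rose (log2 fold 0.67, adjusted p = 0.00734). Cyp2d26, another P450 and outside the list, had levels of 10.10, 10.09 and 10.11 in control and 9.47, 9.50 and 9.48 in DHX9-1271 (log2 fold -0.61, SE 0.0413, adjusted p = 0.000307), with a spread between arrays of a few hundredths in both groups. St6galnac6, which adds sialic acid to glycans, had levels of 10.03, 10.10 and 10.07 in control and 9.34, 9.29 and 9.34 in DHX9-1271 (log2 fold -0.74, SE 0.0508, adjusted p = 0.000307). The calls on Ces2a, Ces1d, Ces2e, Cyp2s1, Cyp2d26 and St6galnac6 held in each of the 9 fits that left out 1 array. The call on Ces2b ended without DHX9-1271 replicate 1 or 3 (adjusted p from 0.0558 to 0.0691). The call on Cyp3a13 ended without control replicate 1 or 3, any 1 DHX9-1271 array or DHX9-837 replicate 1 (adjusted p from 0.0593 to 0.128).

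Epithelial defence and pore-forming genes were among the largest falls too. Serum amyloid A proteins are made by gut epithelium in contact with bacteria. Saa1, which is also on the colonocyte marker list, had levels of 10.05, 10.44 and 10.24 in control and 8.78, 8.50 and 8.67 in DHX9-1271 (log2 fold -1.59, SE 0.117, adjusted p = 0.000433). Saa3 had levels of 8.86, 8.97 and 8.91 in control and 7.95, 7.81 and 7.96 in DHX9-1271 (log2 fold -1.01, SE 0.0996, adjusted p = 0.00225), and in both genes the groups were clear of each other. The other 15 tested genes of the epithelial acute-phase and antimicrobial list were not called. They included wide but scattered differences: the mucosal pentraxin genes Mptx1 (log2 fold -1.99, adjusted p = 0.067) and Mptx2 (log2 fold -2.23, adjusted p = 0.29), the bactericidal lectin gene Reg3g (log2 fold -1.03, adjusted p = 0.585), the lysozyme gene Lyz1 (log2 fold -0.95, adjusted p = 0.656) and the angiogenin gene Ang4 (log2 fold 1.05, adjusted p = 0.589). Gasdermins form membrane pores after cleavage, and of 6 tested 3 fell and 0 rose. Gsdmc2 had levels of 9.96, 11.35 and 10.63 in control and 9.53, 8.85 and 9.40 in DHX9-1271 (log2 fold -1.39, SE 0.309, adjusted p = 0.0432), with control replicates spread over more than a log2 unit. Gsdmc3 also had a wide control spread, with levels of 11.18, 12.12 and 11.65 in control and 10.60, 10.06 and 10.48 in DHX9-1271 (log2 fold -1.27, SE 0.223, adjusted p = 0.0198). Gsdmd, which acts in inflammasome signalling, had levels of 9.0, 8.93 and 8.92 in control and 8.59, 8.35 and 8.44 in DHX9-1271 (log2 fold -0.49, SE 0.0694, adjusted p = 0.0097). The calls on Saa1 and Saa3 held in each of the 9 fits that left out 1 array. The call on Gsdmd ended without DHX9-1271 replicate 3 (adjusted p = 0.0512). The call on Gsdmc3 ended without control replicate 3 or DHX9-1271 replicate 2 or 3 (adjusted p from 0.0512 to 0.0735). The call on Gsdmc2 ended without control replicate 2 or 3, any 1 DHX9-1271 array or any 1 DHX9-837 array (adjusted p from 0.0578 to 0.145).

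Several other large falls belonged to no list. Sycn, which encodes the granule protein syncollin, had the smallest p of all genes, with levels of 10.16, 9.96 and 10.27 in control and 8.23, 8.31 and 8.17 in DHX9-1271 (log2 fold -1.89, SE 0.0872, adjusted p = 4.69e-05). The complex I subunit gene Ndufb2 had levels of 8.52, 8.57 and 8.49 in control and 7.04, 7.25 and 7.18 in DHX9-1271 (log2 fold -1.37, SE 0.0643, adjusted p = 4.69e-05). In both genes the replicates of a group lay close together and the gap between groups exceeded a log2 unit. Apol10a, of the apolipoprotein L family, had levels of 9.95, 10.17 and 10.04 in control and 9.30, 8.99 and 9.27 in DHX9-1271 (log2 fold -0.87, SE 0.108, adjusted p = 0.00609). Slc3a1, a subunit of a cystine transporter, had 9.41, 9.97 and 9.71 in control and 9.02, 8.66 and 8.97 in DHX9-1271 (log2 fold -0.82, SE 0.156, adjusted p = 0.0253). The olfactory marker protein gene Omp had levels of 7.16, 7.11 and 7.19 in control and 6.50, 6.39 and 6.14 in DHX9-1271 (log2 fold -0.81, SE 0.104, adjusted p = 0.00679). Smaller falls were seen in Olr1, the receptor for oxidised low-density lipoprotein (log2 fold -0.63, adjusted p = 0.0199), the small GTPase gene Rab6b (log2 fold -0.54, adjusted p = 0.0199) and Ms4a10 (log2 fold -0.51, adjusted p = 0.0428). The calls on Sycn, Ndufb2, Apol10a and Omp held in each of the 9 fits that left out 1 array. The call on Rab6b ended without DHX9-1271 replicate 2 or 3 (adjusted p from 0.0804 to 0.0858). The call on Olr1 ended without control replicate 1 or 3 or DHX9-1271 replicate 3 (adjusted p from 0.0549 to 0.069). The call on Slc3a1 ended without control replicate 2 or 3 or any 1 DHX9-1271 array (adjusted p from 0.0501 to 0.0935). The call on Ms4a10 ended without any 1 control array, DHX9-1271 replicate 1 or 2 or DHX9-837 replicate 2 or 3 (adjusted p from 0.0577 to 0.142).

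Markers of the absorptive colonocyte moved in the same direction as these groups. Of 20 markers 4 fell and 0 rose, 16 had a log2 fold below 0, and the list's mean ranged from 11.26 to 11.37 in the control arrays and from 11.05 to 11.12 in the DHX9-1271 arrays. The markers that fell were Saa1, the chloride-bicarbonate exchanger gene Slc26a3 (log2 fold -0.27, adjusted p = 0.0297), the guanylin gene Guca2a (log2 fold -0.27, adjusted p = 0.0166) and Mall (log2 fold -0.43, adjusted p = 0.0112). Of 11 markers of epithelium in general 1 was called, Krt18, which rose, and their mean ranged from 10.56 to 10.59 in the control arrays and from 10.65 to 10.68 in the DHX9-1271 arrays. Among small intestine markers 14 of 15 had a log2 fold below 0 (median -0.26) and 1 fell, the brush border phosphatase gene Alpi, with levels of 10.61, 10.92 and 10.74 in control and 10.28, 9.71 and 10.20 in DHX9-1271 (log2 fold -0.70, SE 0.158, adjusted p = 0.045). The part of these cell markers in the falls described above was not tested. Without DHX9-1271 replicate 3 the colonocyte list had 1 fall in place of 4, and without replicate 1 or 2 of that group it had 2. The call on Mall ended without DHX9-1271 replicate 3 (adjusted p = 0.0501). The call on Guca2a ended without any 1 DHX9-1271 array (adjusted p from 0.0573 to 0.0717). The call on Slc26a3 ended without control replicate 1 or 3 or any 1 DHX9-1271 array (adjusted p from 0.0702 to 0.111). The call on Alpi ended without any 1 control array, any 1 DHX9-1271 array or DHX9-837 replicate 1 or 2 (adjusted p from 0.0626 to 0.102).

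**Figure D2:**
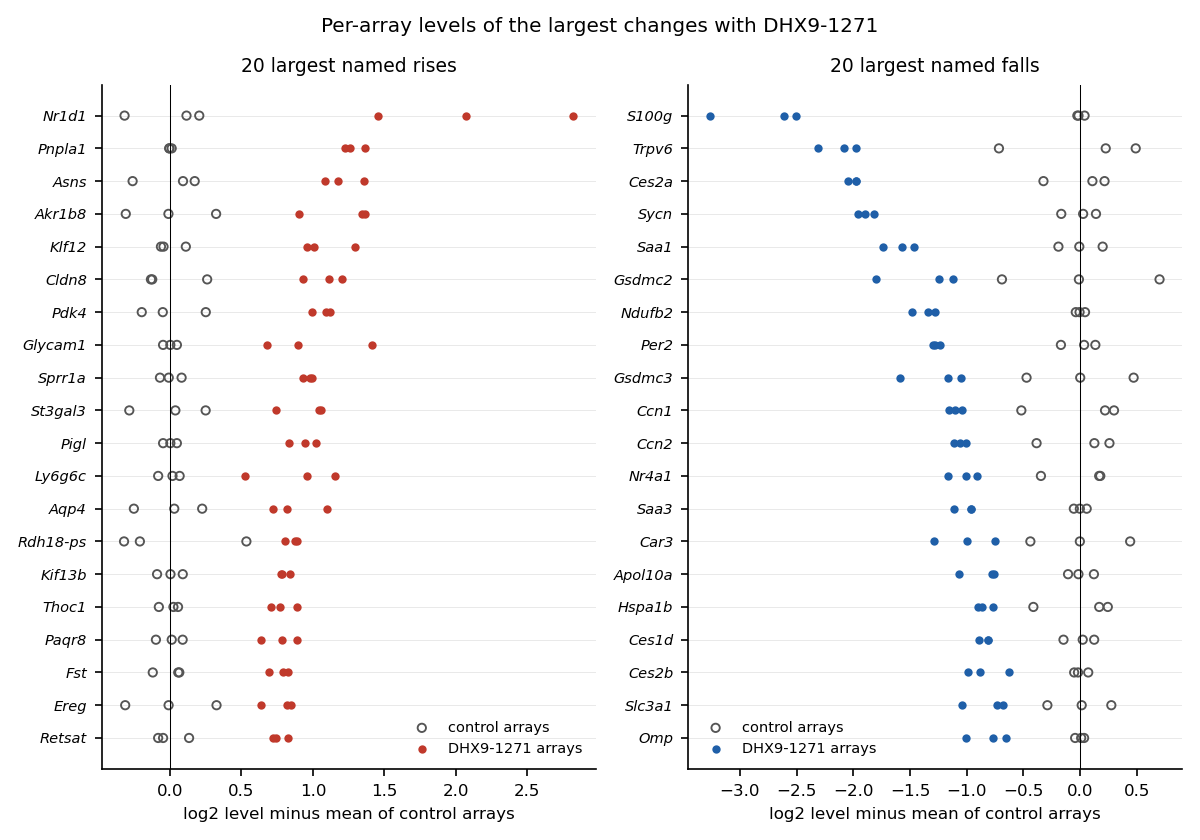
Log2 level of each array minus the mean of the control arrays, for the 20 largest named rises (left) and the 20 largest named falls (right), with open points for control and filled points for DHX9-1271 arrays. The groups do not overlap in any gene drawn, which was a condition for being drawn. Control arrays lie close together for Pnpla1 and Ndufb2 and far apart for Gsdmc2 and Trpv6.

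The circadian clock list held the largest rise among named genes. In the clock, ARNTL with CLOCK or NPAS2 drives the Per and Cry genes, whose proteins repress it, and NR1D1 (REV-ERB alpha) in turn represses Arntl and Npas2. Nr1d1 had levels of 7.56, 7.03 and 7.47 in control and 8.81, 10.18 and 9.43 in DHX9-1271 (log2 fold 2.12, SE 0.294, adjusted p = 0.00905, 95% interval 1.45 to 2.79), 4.34-fold higher, with DHX9-1271 replicates spread over more than a log2 unit and all above control. Of the repressors, Per2 had levels of 8.16, 7.86 and 8.07 in control and 6.79, 6.73 and 6.75 in DHX9-1271 (log2 fold -1.27, SE 0.0737, adjusted p = 0.00014). Per3 had levels of 6.96, 6.86 and 6.83 in control and 6.15, 6.25 and 5.89 in DHX9-1271 (log2 fold -0.79, SE 0.106, adjusted p = 0.00808), and both stood clear of control. Cry1 had levels of 8.09, 8.0 and 8.20 in control and 7.67, 7.56 and 7.75 in DHX9-1271 (log2 fold -0.44, SE 0.0676, adjusted p = 0.0121). Cry2 had levels of 7.75, 7.54 and 7.84 in control and 7.32, 7.14 and 7.32 in DHX9-1271 (log2 fold -0.45, SE 0.0854, adjusted p = 0.0249). All 8 repressors tested had a log2 fold below 0 (median -0.37), of which these 4 fell. The 3 activators all lay above 0 (median 0.31) and 1 rose, Npas2, with levels of 9.28, 9.23 and 9.14 in control and 9.64, 9.58 and 9.71 in DHX9-1271 (log2 fold 0.43, SE 0.065, adjusted p = 0.0114); Arntl had 0.31 (adjusted p = 0.0517) and Clock 0.12 (adjusted p = 0.205). The 3 output genes of the PAR bZIP class and their repressor Nfil3 all lay below 0 (median -0.34) with none called, among them Dbp (log2 fold -0.29, adjusted p = 0.1). Of 4 genes tested in the nuclear receptor loop, only Nr1d1 was called and 2 lay below 0 (median -0.063). Nr1d2, which was not called, had a log2 fold of -0.26, opposite in sign to Nr1d1. Time of day at which tissue was taken is not given in the sources used here, and its part in the result was not tested. The calls on Nr1d1, Per2, Per3 and Cry1 held in each of the 9 fits that left out 1 array. The call on Npas2 ended without DHX9-1271 replicate 3 (adjusted p = 0.0581). The call on Cry2 ended without control replicate 1 or 3 or any 1 DHX9-1271 array (adjusted p from 0.0584 to 0.0922).

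**Figure D3:**
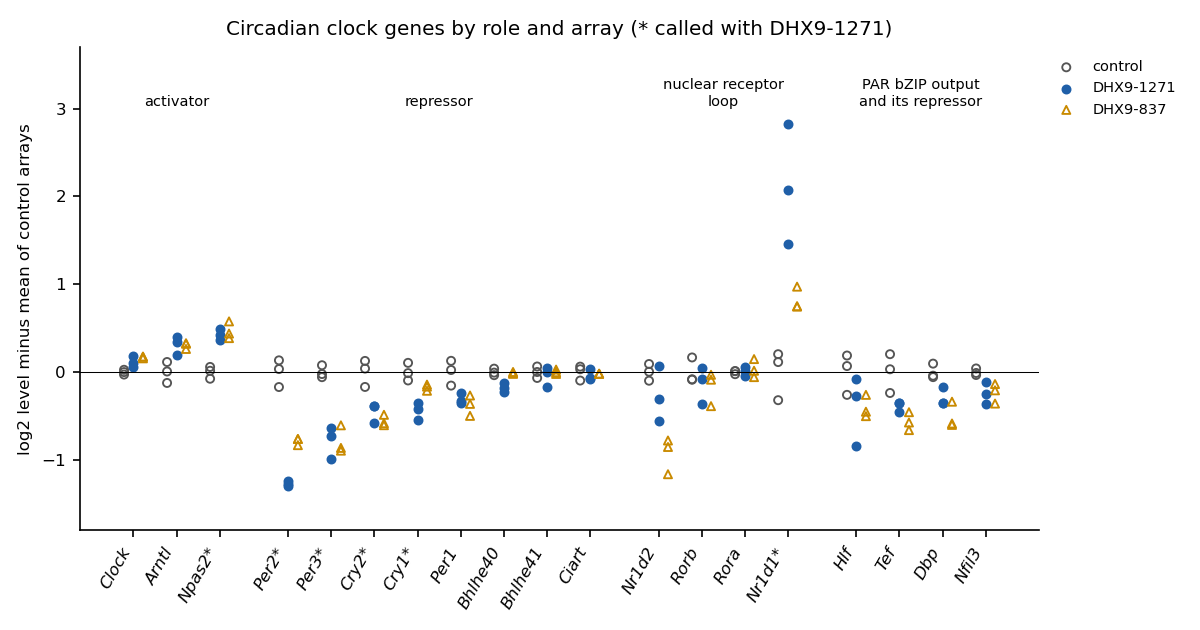
Log2 level of each array minus the mean of the control arrays for the 19 clock genes tested, grouped by role, with open circles for control, filled circles for DHX9-1271 and triangles for DHX9-837 arrays, and a star for genes called with DHX9-1271. Per2, Per3, Cry1 and Cry2 lie below control in all DHX9-1271 arrays and Nr1d1 lies above it in all of them.

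The letters of 2 clock elements were searched, on both strands, in the 300 bases around each start site (250 before to 50 after, RefSeq, GRCm38.p6). Here and below, a gene counted if any of its promoter entries held a match, while the share for all promoters counts single entries. Genes with several entries had more chances of a match, so the values are not like for like. The E-box CACGTG was found in 5 of 17 clock genes with a promoter entry (Bhlhe41, Ciart, Cry1, Per1 and Tef), against 7.15% of all 32851 promoters. The letters AGGTCA, which REV-ERB and ROR factors read within a longer element, were found in 5 of 17 (Arntl, Clock, Nfil3, Nr1d2 and Per1), against 16.3%. Of the called clock genes with an entry, 1 of 5 held the E-box (Cry1) and 0 of 5 these letters. A match is a description of the letters, and no match speaks only of this window.

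Immediate early genes, which respond within minutes to growth signals and stress, included 3 falls and 1 rise among 31 tested. The shares of all genes tested were 1.58% down and 2.83% up. Without any 1 DHX9-1271 array the list had 1 fall, and of the 9 fits only that without replicate 2 of that group kept the rise. Nr4a1, an orphan nuclear receptor, had levels of 8.42, 7.90 and 8.43 in control and 7.08, 7.33 and 7.24 in DHX9-1271 (log2 fold -1.03, SE 0.174, adjusted p = 0.0171), with control replicate 2 lowest in its group and still above every DHX9-1271 array. Of the 9 AP-1 factors 8 lay below 0, and Fosb (6.59, 6.59 and 6.46 in control and 6.07, 5.80 and 6.13 in DHX9-1271, log2 fold -0.55, SE 0.0874, adjusted p = 0.0136) and Fosl2 (10.22, 10.20 and 10.23 in control and 9.90, 9.97 and 9.93 in DHX9-1271, log2 fold -0.28, SE 0.0491, adjusted p = 0.0191) fell. Fos itself was not called (log2 fold -0.28, adjusted p = 0.276), nor were Egr1 (log2 fold -0.33, adjusted p = 0.247) and Jun (log2 fold -0.042, adjusted p = 0.822). Dusp6, a phosphatase that limits ERK signalling, rose (8.50, 8.67 and 8.63 in control and 9.19, 8.80 and 9.0 in DHX9-1271, log2 fold 0.40, SE 0.0924, adjusted p = 0.0487). Of 22 targets of the YAP coactivator, 3 fell and 0 rose, 2 of them the matricellular genes Ccn1 (8.49, 7.68 and 8.41 in control and 7.15, 7.09 and 7.04 in DHX9-1271, log2 fold -1.10, SE 0.199, adjusted p = 0.0212) and Ccn2 (8.12, 7.61 and 8.25 in control and 6.98, 6.93 and 6.88 in DHX9-1271, log2 fold -1.06, SE 0.149, adjusted p = 0.00938), which immediate early signals also induce. The kinase gene Nuak2 fell less (log2 fold -0.36, adjusted p = 0.0489). The median of the YAP list was -0.028 and its sign flipped under 1 of 20 other settings. Of 12 heat shock genes the inducible Hsp70 gene Hspa1b fell (8.49, 7.83 and 8.41 in control and 7.47, 7.38 and 7.35 in DHX9-1271, log2 fold -0.85, SE 0.164, adjusted p = 0.0265), and its neighbour Hspa1a had a log2 fold of -0.57 (adjusted p = 0.0595). The call on Fosb held in each of the 9 fits that left out 1 array. The call on Ccn2 ended without DHX9-1271 replicate 3 (adjusted p = 0.0501). The call on Fosl2 ended without control replicate 1 or any 1 DHX9-1271 array (adjusted p from 0.0522 to 0.0801). The calls on Nr4a1, Ccn1 and Hspa1b ended without control replicate 1 or 3 or any 1 DHX9-1271 array (adjusted p from 0.0501 to 0.105). The call on Dusp6 ended without any 1 control array, DHX9-1271 replicate 1 or 3 or any 1 DHX9-837 array (adjusted p from 0.0686 to 0.157). The call on Nuak2 ended without any 1 of the 9 arrays (adjusted p from 0.0635 to 0.127).

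In Nr4a1, Ccn1, Ccn2 and Hspa1b control replicate 2 was the lowest control array, while it was the highest in Car3, Gsdmc2 and Gsdmc3. In the promoter windows, the cyclic AMP element TGACGTCA was found in 3 of 26 immediate early genes with an entry (1.79% of all promoters), and the CArG box, the element read by serum response factor, in 4 of 26 (1.63%). None of the 4 called immediate early genes with an entry held either. The TEAD core GGAATG, through which YAP acts, was found in 8 of 16 YAP target genes with an entry, against 14.7% of all promoters. Ccn1 was among these genes.

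Genes that set the choice of fuel moved in both directions. Pdk4, the kinase that closes entry of pyruvate into the citric acid cycle in fasting, rose, with levels of 7.42, 7.87 and 7.57 in control and 8.62, 8.74 and 8.72 in DHX9-1271 (log2 fold 1.07, SE 0.104, adjusted p = 0.00211). Pck1, which starts gluconeogenesis, fell, with levels of 9.30, 9.53 and 9.28 in control and 8.70, 8.53 and 8.65 in DHX9-1271 (log2 fold -0.74, SE 0.1, adjusted p = 0.00827). Slc25a20, the carnitine-acylcarnitine carrier of fatty acid oxidation, fell (10.30, 10.20 and 10.29 in control and 9.77, 9.77 and 9.77 in DHX9-1271, log2 fold -0.50, SE 0.0819, adjusted p = 0.0153), as did the receptor gene Ppara (log2 fold -0.38, adjusted p = 0.0201). Of 19 genes on the PPAR and fasting list these 4 were called, 1 up and 3 down. Cpt1a, the gate of fatty acids into mitochondria, had a log2 fold of -0.028 (adjusted p = 0.852) and Angptl4, a fasting-induced inhibitor of lipoprotein lipase, one of 0.61 (adjusted p = 0.151). Retsat, retinol saturase, rose outside the list (8.40, 8.43 and 8.62 in control and 9.23, 9.31 and 9.21 in DHX9-1271, log2 fold 0.76, SE 0.0713, adjusted p = 0.00156). Pck1 is also a marker of fat cells, of which 2 of 9 fell, the other being Car3, carbonic anhydrase III (8.43, 9.31 and 8.87 in control and 8.12, 7.58 and 7.87 in DHX9-1271, log2 fold -1.01, SE 0.22, adjusted p = 0.0399). The mean of the adipocyte markers ranged from 8.07 to 8.44 in the control arrays and from 7.88 to 8.06 in the DHX9-1271 arrays. The part of fat tissue in the Pck1 and Car3 values was not tested. Adipoq and Lep, which define fat cells, lay under the level filter. The calls on Pdk4, Pck1 and Retsat held in each of the 9 fits that left out 1 array. The call on Slc25a20 ended without control replicate 1 or any 1 DHX9-1271 array (adjusted p from 0.0528 to 0.0668). The call on Ppara ended without control replicate 1 or 3 or DHX9-1271 replicate 2 or 3 (adjusted p from 0.0524 to 0.0891). The call on Car3 ended without control replicate 2 or 3, any 1 DHX9-1271 array or any 1 DHX9-837 array (adjusted p from 0.0566 to 0.136).

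A group of rises lay among the targets of ATF4, the transcription factor that turns on amino acid supply when translation initiation is slowed or amino acids are short. Of 32 targets tested 11 rose and 0 fell, and the median log2 fold was 0.19. Asns, asparagine synthetase, led with levels of 7.11, 7.54 and 7.46 in control and 8.46, 8.73 and 8.55 in DHX9-1271 (log2 fold 1.21, SE 0.126, adjusted p = 0.00269), and its lowest DHX9-1271 array lay well above its highest control array. The serine and one-carbon enzymes Mthfd2 (6.57, 6.90 and 6.65 in control and 7.25, 7.66 and 7.44 in DHX9-1271, log2 fold 0.74, SE 0.121, adjusted p = 0.0148), Shmt2 (8.16, 8.21 and 8.22 in control and 8.67, 8.74 and 8.66 in DHX9-1271, log2 fold 0.49, SE 0.0541, adjusted p = 0.00341) and Psat1 (5.98, 6.37 and 6.16 in control and 6.60, 6.68 and 6.64 in DHX9-1271, log2 fold 0.48, SE 0.0958, adjusted p = 0.031) rose, 3 of 6 tested. Among transporters, Slc7a5, which imports leucine and other large amino acids, had levels of 7.41, 7.51 and 7.45 in control and 7.98, 8.12 and 8.03 in DHX9-1271 (log2 fold 0.59, SE 0.0649, adjusted p = 0.00325). Its partner Slc3a2 (log2 fold 0.19, adjusted p = 0.0386) and the arginine carrier Slc7a1 (log2 fold 0.38, adjusted p = 0.02) rose as well, and all 5 transporters lay above 0. Eif4ebp1, a brake on translation initiation, had levels of 7.07, 7.62 and 7.28 in control and 8.05, 7.95 and 8.01 in DHX9-1271 (log2 fold 0.68, SE 0.12, adjusted p = 0.0199). Vldlr (log2 fold 0.44, adjusted p = 0.0139), the stress gene Nupr1 (8.44, 8.17 and 8.43 in control and 8.58, 8.79 and 8.75 in DHX9-1271, log2 fold 0.36, SE 0.084, adjusted p = 0.0496) and the alanyl-tRNA synthetase gene Aars (8.24, 8.12 and 8.23 in control and 8.48, 8.50 and 8.43 in DHX9-1271, log2 fold 0.27, SE 0.0515, adjusted p = 0.0241) completed the 11, and all 8 aminoacyl-tRNA synthetase genes lay above 0.

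Other members of the ATF4 list were not called. Atf4 had a log2 fold of 0.14 (adjusted p = 0.153), the apoptosis-linked factor gene Ddit3 -0.016 (adjusted p = 0.952), the pseudokinase gene Trib3 -0.11 (adjusted p = 0.462) and Sesn2 -0.43 (adjusted p = 0.141). Slc7a11, the cystine importer, had 0.58 (adjusted p = 0.126) and Chac1 0.41 (adjusted p = 0.151). The list's mean ranged from 7.49 to 7.52 in the control arrays and from 7.74 to 7.81 in the DHX9-1271 arrays, with a gap between groups several times wider than either range. Of 20 endoplasmic reticulum chaperones and sensors 1 was called, Ern2, a sensor of goblet cells, which rose (log2 fold 0.26, adjusted p = 0.0311). Hspa5, the chaperone BiP, had a log2 fold of 0.024 (adjusted p = 0.796). The number of ATF4 targets called was 3 without DHX9-1271 replicate 2 or replicate 3, 6 without replicate 1 of that group and 7 to 9 without any 1 of the others. The calls on Asns, Shmt2 and Slc7a5 held in each of the 9 fits that left out 1 array. The calls on Slc7a1 and Vldlr ended without DHX9-1271 replicate 2 or 3 (adjusted p from 0.0556 to 0.0854). The call on Mthfd2 ended without control replicate 1 or DHX9-1271 replicate 2 or 3 (adjusted p from 0.0512 to 0.0639). The call on Aars ended without any 1 DHX9-1271 array (adjusted p from 0.0736 to 0.0937). The call on Eif4ebp1 ended without control replicate 3 or any 1 DHX9-1271 array (adjusted p from 0.0541 to 0.0813). The call on Psat1 ended without control replicate 1 or 3, any 1 DHX9-1271 array or DHX9-837 replicate 1 (adjusted p from 0.0502 to 0.111). The call on Ern2 ended without control replicate 1 or 2, any 1 DHX9-1271 array or DHX9-837 replicate 1 (adjusted p from 0.0506 to 0.114). The calls on Slc3a2 and Nupr1 ended without any 1 of the 9 arrays (adjusted p from 0.0524 to 0.172).

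The core of the element that ATF4 reads with C/EBP partners, TGATGNAA, was searched on both strands in the same promoter windows. It was present in 10 of 26 ATF4 targets with an entry, against 3.97% of all 32851 promoters, and in 4 of the 9 called targets with an entry, Asns, Aars, Nupr1 and Vldlr. The promoters of Asns, the gene with the largest rise, and of Aars, the member of the synthetase class that was called, are shown with the matches in capitals, 5' to 3' along the gene (RefSeq, GRCm38.p6, Asns chr6:7693160-7693459, minus strand, Aars chr8:111033592-111033891, plus strand). In Asns 1 match lies shortly before the start site, and in Aars both matches read as the reverse complement of the core.
Asns: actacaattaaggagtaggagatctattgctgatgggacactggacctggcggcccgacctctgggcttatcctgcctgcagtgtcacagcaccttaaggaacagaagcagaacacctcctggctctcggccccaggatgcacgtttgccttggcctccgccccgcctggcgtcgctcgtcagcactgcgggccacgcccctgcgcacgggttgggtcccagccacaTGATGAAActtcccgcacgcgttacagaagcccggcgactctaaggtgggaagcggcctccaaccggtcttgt
Aars: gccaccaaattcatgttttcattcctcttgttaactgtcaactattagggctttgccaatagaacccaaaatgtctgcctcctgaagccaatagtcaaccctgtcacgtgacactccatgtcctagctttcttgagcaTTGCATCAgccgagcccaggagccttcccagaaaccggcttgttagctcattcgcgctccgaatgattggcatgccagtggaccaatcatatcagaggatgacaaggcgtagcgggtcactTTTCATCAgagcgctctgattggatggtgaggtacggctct

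Genes of G2 phase and mitosis formed the group with the most calls. Of 31 tested, 17 rose and 0 fell, and all 31 had a log2 fold above 0, against 51.8% of all genes tested. In 30 every DHX9-1271 array lay above every control array, against 2594 of all 16808 genes tested. The mean of the G2 and mitosis genes ranged from 7.34 to 7.69 in the control arrays and from 7.93 to 7.95 in the DHX9-1271 arrays, so control replicates were spread while DHX9-1271 replicates were nearly equal. Ccnb2, cyclin B2, had levels of 7.89, 8.36 and 8.21 in control and 8.76, 8.91 and 8.80 in DHX9-1271 (log2 fold 0.66, SE 0.112, adjusted p = 0.017). Ube2c, which helps to degrade cyclins at the end of mitosis, had levels of 8.28, 8.87 and 8.61 in control and 9.22, 9.22 and 9.23 in DHX9-1271 (log2 fold 0.64, SE 0.123, adjusted p = 0.0255). Mki67, the proliferation antigen Ki-67, had levels of 9.35, 9.73 and 9.54 in control and 10.07, 10.09 and 10.15 in DHX9-1271 (log2 fold 0.56, SE 0.0861, adjusted p = 0.0116). Tpx2, a spindle assembly factor, had 7.44, 7.57 and 7.54 in control and 8.02, 7.98 and 7.96 in DHX9-1271 (log2 fold 0.47, SE 0.0493, adjusted p = 0.00269). Kif23, a kinesin of cytokinesis, had levels of 6.98, 7.30 and 7.04 in control and 7.67, 7.80 and 7.64 in DHX9-1271 (log2 fold 0.60, SE 0.0868, adjusted p = 0.0101). Control replicate 1 was the lowest array in each of these 5 genes. The other genes that rose were Anln, Hmmr, Birc5, Cenpe, Nusap1, Ect2, Ccna2, Aurka, Kif11, Cdc20, Aurkb and Ncapd2, with log2 folds from 0.26 (Ncapd2) to 0.63 (Anln). The mean of 17 B and plasma cell markers also lay higher, from 7.22 to 7.34 in the control arrays and from 7.45 to 7.89 in the DHX9-1271 arrays, and its part in these rises was not tested. Cdk1 missed the threshold (log2 fold 0.46, adjusted p = 0.0539), and Top2a had a log2 fold of 0.095 (adjusted p = 0.584).

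Of 29 genes of the DNA replication step itself 2 rose, Rfc4, a subunit of the clamp loader (log2 fold 0.49, adjusted p = 0.0197), and Mcm10, which helps start replication forks (log2 fold 0.39, adjusted p = 0.0149), and the median was 0.064 against 0.41 for G2 and mitosis. Of 29 nucleolar factors of ribosome assembly 5 rose, Gnl3 (log2 fold 0.37, adjusted p = 0.0399), Nop58 (log2 fold 0.28, adjusted p = 0.0326), Mybbp1a (log2 fold 0.27, adjusted p = 0.0231), Ncl (log2 fold 0.26, adjusted p = 0.0361) and Nop2 (log2 fold 0.24, adjusted p = 0.0463). Of 19 crypt stem cell and Wnt target genes, Cd44 (log2 fold 0.41, adjusted p = 0.0132) and the sodium-potassium-chloride cotransporter gene Slc12a2 (log2 fold 0.24, adjusted p = 0.0379) rose. The stem cell marker Lgr5 had a log2 fold of -0.058 (adjusted p = 0.741) and Myc one of 0.29 (adjusted p = 0.132). None of 20 p53 targets was called, and their median of 0.013 changed sign under 2 of 20 other settings. Cdkn1a, the p53 target p21, had a log2 fold of 0.25 (adjusted p = 0.0794).

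The number of G2 and mitosis genes called varied from 2 without DHX9-1271 replicate 3 to 24 without control replicate 2, with 5 without DHX9-1271 replicate 2, 7 without replicate 1 of that group, 9 without control replicate 3, 10 without control replicate 1 and 11 to 14 without any 1 DHX9-837 array. For ribosome assembly 0 of the 5 calls were left without any 1 DHX9-1271 array and 1 to 3 without any 1 of the others. The calls on Tpx2 and Kif23 held in each of the 9 fits that left out 1 array. The calls on Mki67 and Cd44 ended without DHX9-1271 replicate 3 (adjusted p from 0.0596 to 0.0639). The call on Ccnb2 ended without DHX9-1271 replicate 2 or 3 (adjusted p from 0.0668 to 0.0724). The call on Rfc4 ended without control replicate 1 or DHX9-1271 replicate 1 or 2 (adjusted p from 0.0568 to 0.0784). The call on Mcm10 ended without any 1 DHX9-1271 array (adjusted p from 0.0553 to 0.0639). The call on Ube2c ended without control replicate 3 or any 1 DHX9-1271 array (adjusted p from 0.0578 to 0.0977). The call on Slc12a2 ended without any 1 control array, any 1 DHX9-1271 array or DHX9-837 replicate 1 or 2 (adjusted p from 0.0546 to 0.142).

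Type I interferon-stimulated genes, which limit viruses and are switched on by sensing of double-stranded RNA or DNA, included 6 rises and 0 falls among 31 tested (median 0.25). Ifi27l2a had levels of 6.96, 6.81 and 7.15 in control and 7.52, 8.0 and 7.69 in DHX9-1271 (log2 fold 0.76, SE 0.125, adjusted p = 0.0152). Rsad2, which encodes the antiviral enzyme viperin, had levels of 9.14, 8.71 and 9.15 in control and 9.98, 9.38 and 9.85 in DHX9-1271 (log2 fold 0.74, SE 0.171, adjusted p = 0.0482). The factor genes Irf7 (10.89, 10.70 and 10.96 in control and 11.35, 11.17 and 11.24 in DHX9-1271, log2 fold 0.40, SE 0.0893, adjusted p = 0.0422) and Stat2 (log2 fold 0.39, adjusted p = 0.0387), the double-stranded RNA-activated kinase gene Eif2ak2 (log2 fold 0.33, adjusted p = 0.045) and the membrane gene Ifitm3 (log2 fold 0.28, adjusted p = 0.0131) were the others. Isg15 (log2 fold 0.26, adjusted p = 0.441), Bst2 (log2 fold 0.52, adjusted p = 0.0545) and Trim30a (log2 fold 0.71, adjusted p = 0.0987) were not called. The sensors Ifih1 (log2 fold 0.039, adjusted p = 0.812) and Ddx58 (log2 fold -0.11, adjusted p = 0.653) were not called either. The list's mean ranged from 8.27 to 8.54 in the control arrays and from 8.63 to 8.75 in the DHX9-1271 arrays, and in the 3 DHX9-837 arrays it ranged from 8.16 to 8.51. Rsad2 in DHX9-837 had levels of 9.15, 9.04 and 9.34, which overlapped control. The count of interferon genes called was 0 without DHX9-1271 replicate 3, 1 without replicate 1 of that group or control replicate 1, 2 or 3 without control replicate 2 or 3, DHX9-1271 replicate 2 or DHX9-837 replicate 1 or 2, and 7 without DHX9-837 replicate 3. The call on Ifi27l2a ended without control replicate 1 or DHX9-1271 replicate 3 (adjusted p from 0.0509 to 0.0612). The call on Ifitm3 ended without any 1 DHX9-1271 array (adjusted p from 0.0523 to 0.0581). The call on Irf7 ended without any 1 control array, any 1 DHX9-1271 array or DHX9-837 replicate 2 (adjusted p from 0.0515 to 0.135). The call on Stat2 ended without control replicate 1 or 3, any 1 DHX9-1271 array or DHX9-837 replicate 1 or 2 (adjusted p from 0.0515 to 0.137). The call on Rsad2 ended without any 1 control array, DHX9-1271 replicate 1 or 3 or any 1 DHX9-837 array (adjusted p from 0.0611 to 0.169). The call on Eif2ak2 ended without any 1 control array, any 1 DHX9-1271 array or DHX9-837 replicate 1 or 2 (adjusted p from 0.0563 to 0.161).

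A core of the interferon-stimulated response element, GAAANNGA, was present on either strand in 16 of 22 interferon-stimulated genes with an entry, against 21.0% of all promoters. It was present in all 5 called genes with an entry. The core is short and common, and the 16 of 22 counts genes while the share in all promoters counts single entries. The promoter of Rsad2, the gene for viperin, is shown with its match in capitals, which reads as the reverse complement (RefSeq, GRCm38.p6, chr12:26456403-26456702, minus strand).
Rsad2: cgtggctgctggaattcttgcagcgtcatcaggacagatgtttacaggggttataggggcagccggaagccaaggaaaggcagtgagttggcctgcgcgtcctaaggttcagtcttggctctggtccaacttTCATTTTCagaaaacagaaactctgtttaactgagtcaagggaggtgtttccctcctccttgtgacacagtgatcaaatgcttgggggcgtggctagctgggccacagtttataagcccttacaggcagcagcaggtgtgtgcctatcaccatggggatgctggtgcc

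Among rises outside the lists, Pnpla1, of a lipase family that makes barrier lipids in skin, had levels of 5.93, 5.93 and 5.95 in control and 7.16, 7.19 and 7.30 in DHX9-1271 (log2 fold 1.28, SE 0.0617, adjusted p = 4.69e-05), the third smallest p of all genes. Pigl, an enzyme of GPI anchor synthesis, had 7.18, 7.23 and 7.28 in control and 8.17, 8.06 and 8.25 in DHX9-1271 (log2 fold 0.93, SE 0.0643, adjusted p = 0.000307), and Kif13b, a kinesin, 8.61, 8.52 and 8.70 in control and 9.38, 9.44 and 9.39 in DHX9-1271 (log2 fold 0.80, SE 0.0568, adjusted p = 0.000367). Lrrc51 had 6.96, 7.06 and 6.97 in control and 7.65, 7.67 and 7.67 in DHX9-1271 (log2 fold 0.67, SE 0.0444, adjusted p = 0.000307). In these 4 genes the gap between the groups was wider than the range of either group. Klf12, a zinc finger repressor, had levels of 5.18, 5.34 and 5.17 in control and 6.19, 6.53 and 6.24 in DHX9-1271 (log2 fold 1.09, SE 0.0987, adjusted p = 0.00141). Its control mean of 5.23 lay under the level filter of 5.28, which makes that fold less sure. Klf12 passed the filter, set on the mean over all 9 arrays, only through its higher values in the hairpin arrays against Dhx9. Sprr1a, a precursor of the cornified envelope, had 10.04, 10.20 and 10.11 in control and 11.05, 11.10 and 11.11 in DHX9-1271 (log2 fold 0.97, SE 0.0884, adjusted p = 0.00141), and the sialyltransferase gene St3gal3 7.42, 7.95 and 7.74 in control and 8.76, 8.45 and 8.75 in DHX9-1271 (log2 fold 0.95, SE 0.144, adjusted p = 0.0115). Ly6g6c, a GPI-anchored surface protein, had 10.50, 10.35 and 10.45 in control and 11.59, 10.96 and 11.40 in DHX9-1271 (log2 fold 0.88, SE 0.183, adjusted p = 0.0351). The calls on Pnpla1, Pigl, Kif13b, Lrrc51, Klf12 and Sprr1a held in each of the 9 fits that left out 1 array. The call on St3gal3 ended without DHX9-1271 replicate 3 (adjusted p = 0.0581). The call on Ly6g6c ended without any 1 control array, DHX9-1271 replicate 1 or 3 or DHX9-837 replicate 1 (adjusted p from 0.0538 to 0.129).

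Secreted growth regulators were represented by Fst, whose product follistatin binds activin (7.09, 7.28 and 7.27 in control and 7.90, 8.04 and 8.0 in DHX9-1271, log2 fold 0.77, SE 0.0676, adjusted p = 0.0013), and Ereg, a ligand of the EGF receptor (7.11, 7.75 and 7.41 in control and 8.27, 8.05 and 8.24 in DHX9-1271, log2 fold 0.77, SE 0.14, adjusted p = 0.0219). Both were above control in every array. Akr1b8, 1 of 9 aldo-keto reductases, which reduce aldehydes, was the only member called (7.25, 6.62 and 6.92 in control and 8.28, 7.83 and 8.29 in DHX9-1271, log2 fold 1.20, SE 0.181, adjusted p = 0.0111), and the sign of that list's median of 0.049 flipped under 3 of 20 other settings. Lpcat4, a phospholipid acyltransferase (log2 fold 0.69, adjusted p = 0.0148), the epoxide hydrolase gene Ephx1 (log2 fold 0.49, adjusted p = 0.0128), the membrane progestin receptor gene Paqr8 (log2 fold 0.77, adjusted p = 0.00269) and Rdh18-ps, a retinol dehydrogenase pseudogene whose signal may include that of related genes (log2 fold 0.86, adjusted p = 0.0482), also rose. Glycam1, a mucin-like ligand for lymphocyte selectin made by high endothelial venules, had levels of 7.46, 7.41 and 7.51 in control and 8.14, 8.87 and 8.35 in DHX9-1271 (log2 fold 1.0, SE 0.154, adjusted p = 0.012). The calls on Fst and Paqr8 held in each of the 9 fits that left out 1 array. The calls on Akr1b8, Ephx1 and Glycam1 ended without DHX9-1271 replicate 3 (adjusted p from 0.0501 to 0.0573). The call on Lpcat4 ended without control replicate 1 or DHX9-1271 replicate 3 (adjusted p from 0.0507 to 0.0679). The call on Ereg ended without control replicate 3 or any 1 DHX9-1271 array (adjusted p from 0.0554 to 0.0891). The call on Rdh18-ps ended without control replicate 1 or 2, any 1 DHX9-1271 array or any 1 DHX9-837 array (adjusted p from 0.0654 to 0.153).

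Of 12 claudins, the strand proteins of tight junctions, 1 rose, Cldn8, which seals the junction to sodium (6.02, 6.03 and 6.41 in control and 7.08, 7.35 and 7.27 in DHX9-1271, log2 fold 1.08, SE 0.13, adjusted p = 0.00533). Of 28 ion and water transport genes 3 rose and 1 fell, against 2.83% and 1.58% of all genes tested. Aqp4, a water channel, had levels of 6.72, 6.24 and 6.52 in control and 7.21, 7.59 and 7.31 in DHX9-1271 (log2 fold 0.88, SE 0.142, adjusted p = 0.0144), and the chloride channel genes Cftr (log2 fold 0.34, adjusted p = 0.0278) and Best2 (log2 fold 0.30, adjusted p = 0.022) rose while Slc26a3, given above, fell. None of the 7 sodium transport genes was called, among them Scnn1a, a subunit of the epithelial sodium channel (log2 fold 0.047, adjusted p = 0.858). Both Best2 and Cftr are also expressed in secretory or crypt cells, and of 16 goblet cell markers 4 rose and 0 fell, Agr2 (log2 fold 0.49, adjusted p = 0.0361), Creb3l1 (log2 fold 0.37, adjusted p = 0.00992), Best2 and Ern2, while the mucin gene Muc2 had 0.098 (adjusted p = 0.433). The mean of the goblet markers ranged from 9.75 to 10.06 in the control arrays and from 10.04 to 10.06 in the DHX9-1271 arrays. Their part in the Best2 and Ern2 values was not tested. Without any 1 DHX9-1271 array 0 or 1 of the 4 goblet calls and 0 or 1 of the 3 ion transport rises were left. The call on Cldn8 held in each of the 9 fits that left out 1 array. The call on Creb3l1 ended without DHX9-1271 replicate 3 (adjusted p = 0.0501). The call on Aqp4 ended without DHX9-1271 replicate 2 or 3 (adjusted p from 0.0556 to 0.0573). The call on Cftr ended without any 1 DHX9-1271 array (adjusted p from 0.0602 to 0.116). The call on Best2 ended without control replicate 3 or any 1 DHX9-1271 array (adjusted p from 0.0557 to 0.091). The call on Agr2 ended without control replicate 1 or 3, any 1 DHX9-1271 array or any 1 DHX9-837 array (adjusted p from 0.0524 to 0.128).

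Thoc1, a core subunit of the THO complex, which couples transcription to RNA export, was 1 of the 20 largest rises, with levels of 7.18, 7.31 and 7.28 in control and 7.97, 8.15 and 8.03 in DHX9-1271 (log2 fold 0.79, SE 0.0612, adjusted p = 0.000588). Another 13 genes of THO, of TREX, the larger complex it belongs to, and of their export partners were looked up after that value was seen, and 2 of them were called. Ddx39b, the RNA helicase of TREX, had levels of 9.19, 9.26 and 9.25 in control and 9.81, 9.81 and 9.81 in DHX9-1271 (log2 fold 0.57, SE 0.0429, adjusted p = 0.000469), and its 3 DHX9-1271 arrays were equal to the second decimal. Equal deposited values in 2 or more arrays were common, in 45.3% of genes tested, so such equality is not particular to this gene. Thoc2 rose by less (8.77, 8.65 and 8.84 in control and 8.96, 9.09 and 9.14 in DHX9-1271, log2 fold 0.31, SE 0.0653, adjusted p = 0.0365). Thoc3 had a log2 fold of 0.20 (adjusted p = 0.0587). Thoc5 (log2 fold -0.14, adjusted p = 0.195), Thoc6 (log2 fold -0.037, adjusted p = 0.821), Thoc7 (log2 fold 0.0094, adjusted p = 0.937), the adaptor gene Alyref (log2 fold -0.063, adjusted p = 0.857), Ddx39a (log2 fold 0.10, adjusted p = 0.666) and the export receptor gene Nxf1 (log2 fold -0.087, adjusted p = 0.345) were not called. Nor were Alyref2 (log2 fold -0.24, adjusted p = 0.446), Poldip3 (log2 fold -0.084, adjusted p = 0.383), Sarnp (log2 fold -0.089, adjusted p = 0.733) and Zc3h11a (log2 fold -0.041, adjusted p = 0.662), all of them below 0. The calls on Thoc1 and Ddx39b held in each of the 9 fits that left out 1 array. The call on Thoc2 ended without control replicate 1 or 2, DHX9-1271 replicate 2 or 3 or any 1 DHX9-837 array (adjusted p from 0.0522 to 0.141).

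Of 209 microRNA genes tested, 7 fell (3.35%) and 0 rose, and 138 (66.0%) had a log2 fold below 0, against 48.1% of all genes tested. At an unadjusted limma p under 0.05, 32 were down (15.3%) and 4 up (1.91%), against 8.06% and 12.5% of all genes. In both directions together that was 17.2% of microRNA genes and 20.5% of all genes. The median log2 fold was -0.061 for microRNA, -0.047 for small nucleolar RNA, -0.036 for long non-coding RNA and 0.01 for protein-coding genes. A median below 0 was thus not particular to microRNA genes. A microRNA finds its targets through bases 2 to 8 of its mature strand, the seed. The main strands of the called genes, and that of Mir200b beside Mir200a, are shown because these letters set which targets each can bind. They are written 5' to 3' with the seed in capitals (RefSeq, GRCm38.p6).
miR-192-5p: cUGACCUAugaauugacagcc
miR-194-5p: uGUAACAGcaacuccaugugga
miR-200a-3p: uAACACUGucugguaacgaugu
miR-200b-3p: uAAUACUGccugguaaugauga
miR-196a-5p: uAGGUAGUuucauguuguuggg
miR-210-3p: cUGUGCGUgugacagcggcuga
miR-505-3p: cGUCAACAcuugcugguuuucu
miR-743a-3p: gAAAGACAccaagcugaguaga

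Among the 14 mature strands of the 7 called genes 0 seeds were shared. Mir192 (chr19:6264857-6264877, plus strand), an abundant microRNA of gut epithelium, had levels of 7.15, 7.11 and 7.55 in control and 6.61, 5.99 and 6.29 in DHX9-1271 (log2 fold -0.97, SE 0.198, adjusted p = 0.0322). The sequence of miR-194-5p is encoded by 2 genes, Mir194-1 (chr1:185313325-185313346, plus strand) and Mir194-2 (chr19:6264658-6264679, plus strand), the latter next to Mir192 on the same strand. Mir194-1 had levels of 7.57, 7.28 and 7.30 in control and 6.95, 6.86 and 6.82 in DHX9-1271 (log2 fold -0.50, SE 0.098, adjusted p = 0.0267), whereas Mir194-2 had 7.61, 6.86 and 6.98 in control and 7.30, 7.16 and 7.78 in DHX9-1271 (log2 fold 0.26, SE 0.267, adjusted p = 0.624), with overlapping groups. So 2 genes of 1 mature sequence, and 2 neighbours on chromosome 19, did not give the same call, and the difference between them was not tested. Mir200a (chr4:156054911-156054932, minus strand), of the family that maintains epithelial identity, had 6.99, 6.56 and 6.74 in control and 6.08, 5.79 and 6.17 in DHX9-1271 (log2 fold -0.75, SE 0.159, adjusted p = 0.0366), and its neighbour Mir200b (chr4:156055685-156055706, minus strand) had 6.81, 6.62 and 6.97 in control and 6.45, 6.08 and 6.18 in DHX9-1271 (log2 fold -0.57, SE 0.152, adjusted p = 0.0775), which missed the threshold.

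Mir196a-1, which lies in a Hox cluster (chr11:96265187-96265208, plus strand), had levels of 8.39, 8.15 and 8.48 in control and 7.99, 7.85 and 7.99 in DHX9-1271 (log2 fold -0.40, SE 0.0883, adjusted p = 0.0427). Mir210, the microRNA of low oxygen, had levels of 9.01, 9.02 and 8.88 in control and 8.72, 8.79 and 8.64 in DHX9-1271 (log2 fold -0.26, SE 0.0594, adjusted p = 0.0486). Mir505 had levels of 7.39, 7.50 and 7.36 in control and 6.93, 6.94 and 7.07 in DHX9-1271 (log2 fold -0.44, SE 0.0802, adjusted p = 0.0227). Mir743 had levels of 5.87, 5.99 and 5.63 in control and 5.22, 5.54 and 5.32 in DHX9-1271 (log2 fold -0.47, SE 0.11, adjusted p = 0.0494). The groups did not overlap for any of the 7 called genes, as was the case for every called gene in this comparison. Whether a probe set read the mature strand, its hairpin or a longer transcript cannot be told apart here. No microRNA call held in all of the 9 fits that left out 1 array. The call on Mir194-1 ended without control replicate 1 or any 1 DHX9-1271 array (adjusted p from 0.0627 to 0.111). The call on Mir192 ended without control replicate 1 or 3, DHX9-1271 replicate 2 or 3 or DHX9-837 replicate 1 (adjusted p from 0.0546 to 0.112). The call on Mir505 ended without control replicate 1 or 2 or any 1 DHX9-1271 array (adjusted p from 0.0538 to 0.0907). The call on Mir200a ended without control replicate 1 or 3, any 1 DHX9-1271 array or DHX9-837 replicate 2 (adjusted p from 0.0558 to 0.128). The call on Mir196a-1 ended without control replicate 1 or 3, any 1 DHX9-1271 array or any 1 DHX9-837 array (adjusted p from 0.0566 to 0.146). The calls on Mir210 and Mir743 ended without control replicate 1 or 2, any 1 DHX9-1271 array or any 1 DHX9-837 array (adjusted p from 0.0632 to 0.177). Of 91 small nucleolar RNA genes 4 fell (4.4%, against 1.58% of all genes tested) and 2 rose (2.2%, against 2.83%), with log2 folds from -0.70 to 0.36.

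**Figure D4:**
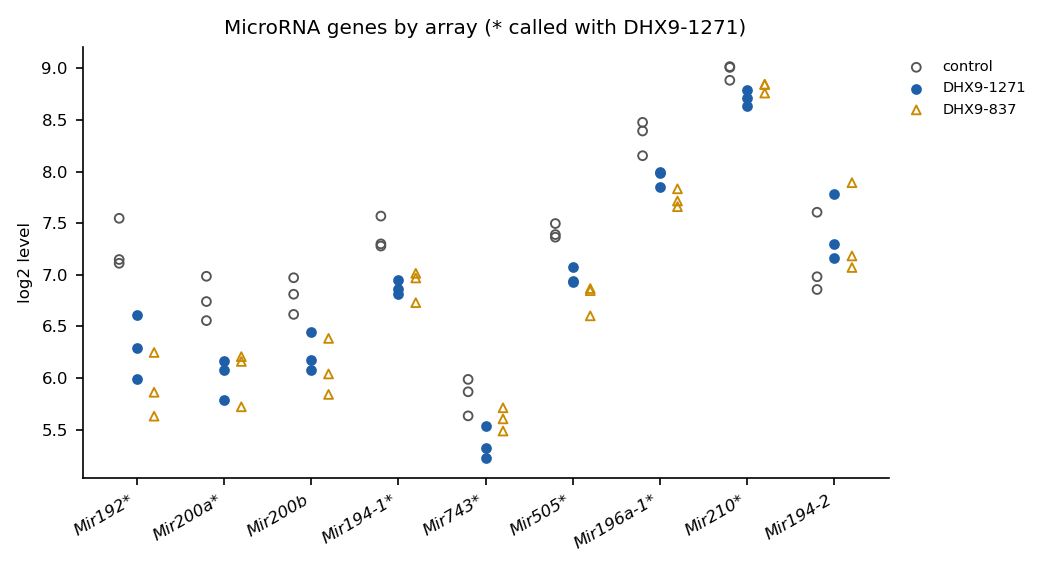
Log2 level of each array for the 7 microRNA genes that fell (starred) and for Mir200b and Mir194-2, which were not called, with open circles for control, filled circles for DHX9-1271 and triangles for DHX9-837 arrays. Control and DHX9-1271 points are separate for each called gene, as for all genes called, and overlap for Mir194-2.

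Markers of other cell types rose in part. Of 16 endothelial markers 5 rose and 0 fell, Prox1, Emcn, Pecam1, Cdh5 and Eng, with log2 folds from 0.27 (Eng) to 0.34 (Prox1), and the list's mean ranged from 7.17 to 7.22 in the control arrays and from 7.33 to 7.41 in the DHX9-1271 arrays. Of 16 fibroblast and matrix markers 2 rose, Postn (log2 fold 0.33, adjusted p = 0.0441) and Fbln1 (log2 fold 0.30, adjusted p = 0.0408), and the mean ranged from 8.84 to 9.11 in the control arrays and from 9.15 to 9.24 in the DHX9-1271 arrays. Of 17 B and plasma cell markers 2 rose, Cd22 (log2 fold 0.63, adjusted p = 0.0434) and Pax5 (log2 fold 0.42, adjusted p = 0.031), with the mean given above. Of 14 macrophage and granulocyte markers 2 rose, the colony-stimulating factor receptor gene Csf1r (7.65, 7.68 and 7.67 in control and 7.98, 8.13 and 8.01 in DHX9-1271, log2 fold 0.38, SE 0.0536, adjusted p = 0.0097) and the complement gene C1qc (log2 fold 0.41, adjusted p = 0.0187), and the mean ranged from 7.17 to 7.21 in the control arrays and from 7.32 to 7.41 in the DHX9-1271 arrays. None of 16 T and NK cell markers was called (mean from 6.76 to 6.86 in the control arrays and from 6.82 to 6.87 in the DHX9-1271 arrays), nor of 13 smooth muscle markers (mean from 10.04 to 10.21 in the control arrays and from 10.13 to 10.26 in the DHX9-1271 arrays). Without DHX9-1271 replicate 3 the endothelial list had 0 calls, the fibroblast list 0, the B cell list 0 and the macrophage list 1. The call on Csf1r held in each of the 9 fits that left out 1 array. The calls on C1qc and Emcn ended without DHX9-1271 replicate 2 or 3 (adjusted p from 0.0664 to 0.0718). The call on Pecam1 ended without any 1 DHX9-1271 array (adjusted p from 0.0539 to 0.0735). The call on Prox1 ended without control replicate 1 or 3 or any 1 DHX9-1271 array (adjusted p from 0.0559 to 0.101). The calls on Fbln1 and Pax5 ended without any 1 control array, any 1 DHX9-1271 array or DHX9-837 replicate 1 (adjusted p from 0.0511 to 0.141). The calls on Postn and Cdh5 ended without control replicate 1 or 3, any 1 DHX9-1271 array or any 1 DHX9-837 array (adjusted p from 0.0641 to 0.173). The call on Cd22 ended without any 1 control array, any 1 DHX9-1271 array or DHX9-837 replicate 1 or 3 (adjusted p from 0.053 to 0.116). The call on Eng ended without any 1 of the 9 arrays (adjusted p from 0.0606 to 0.146).

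Dividing B cells also express G2 and mitosis genes, and macrophages and endothelium express interferon-stimulated genes. In all 3 DHX9-1271 arrays the means of the B cell, macrophage and endothelial lists lay above all 3 control arrays, as did those of the G2 and mitosis and interferon lists. The same held for the fibroblast, general epithelium, ATF4 target, DNA replication, ribosome assembly and claudin lists. The part of B cells, macrophages and endothelium in the mitosis and interferon results was not tested. Hormone and nerve markers moved singly. Gcg, which encodes the proglucagon of L cells, rose (9.39, 9.42 and 9.34 in control and 9.95, 9.85 and 9.96 in DHX9-1271, log2 fold 0.53, SE 0.0682, adjusted p = 0.00679), the granule gene Chga fell (log2 fold -0.32, adjusted p = 0.0414), and 12 other enteroendocrine markers were not called. Vip, a neuropeptide of enteric neurons, rose (7.97, 7.97 and 8.03 in control and 8.30, 8.62 and 8.44 in DHX9-1271, log2 fold 0.47, SE 0.0789, adjusted p = 0.0172) as 1 of 12 neuron and glia markers. Krt18, a keratin of simple epithelium, had levels of 8.96, 9.08 and 8.91 in control and 9.48, 9.44 and 9.51 in DHX9-1271 (log2 fold 0.49, SE 0.0591, adjusted p = 0.00533). The calls on Gcg and Krt18 held in each of the 9 fits that left out 1 array. The call on Vip ended without control replicate 1 or DHX9-1271 replicate 3 (adjusted p from 0.0555 to 0.068). The call on Chga ended without control replicate 1 or 2, any 1 DHX9-1271 array or DHX9-837 replicate 2 (adjusted p from 0.0646 to 0.143).

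**Figure D5:**
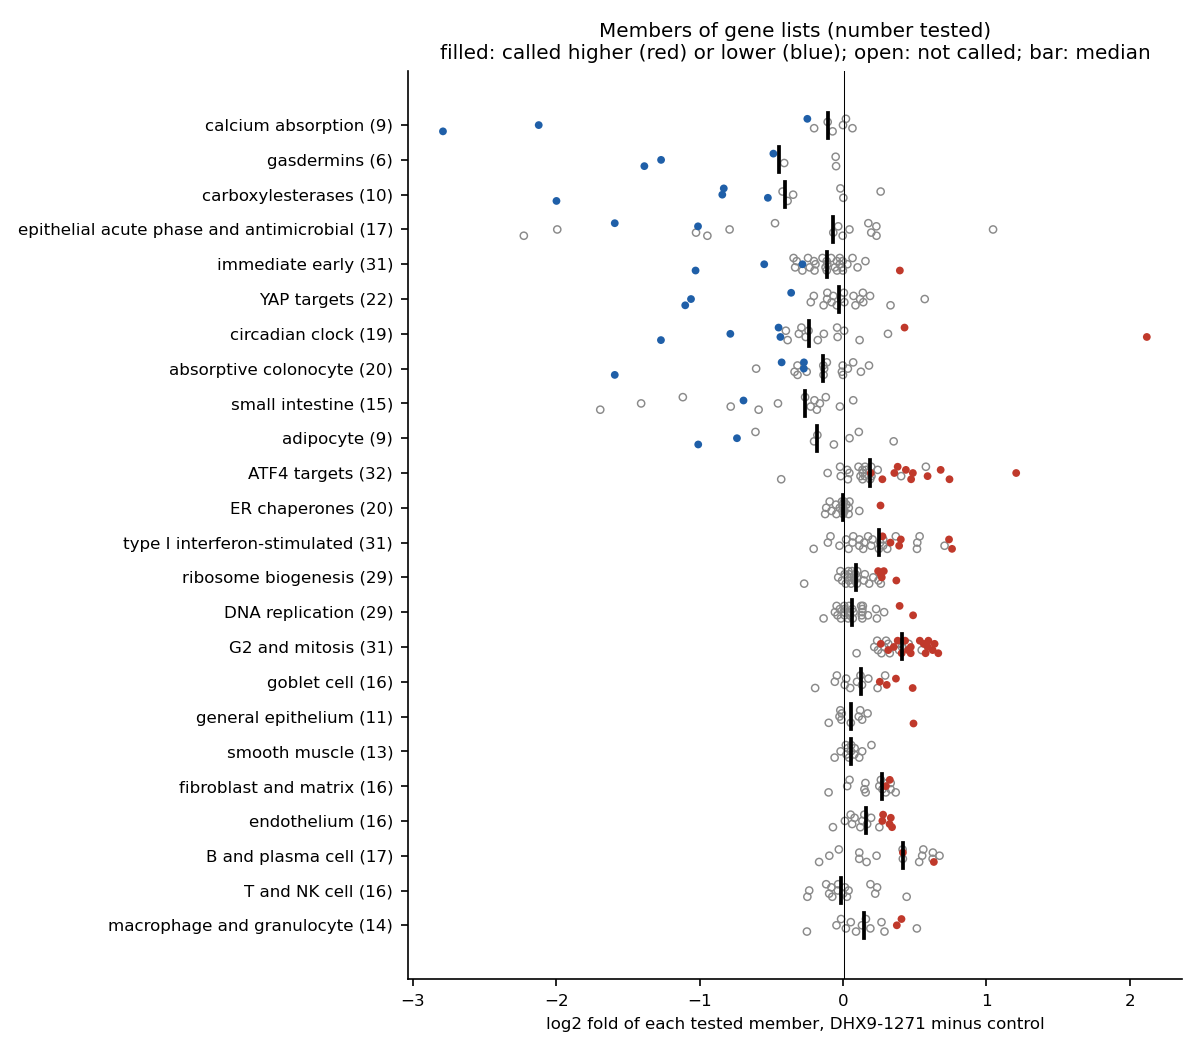
Log2 fold of DHX9-1271 over control for every tested member of 24 gene lists, with each point 1 gene, called genes filled (red higher, blue lower), others open, and the bar the list median. All 31 G2 and mitosis genes lie above 0 (median 0.41), while the medians of gasdermins (-0.45) and carboxylesterases (-0.40) lie below.

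Antigen receptor genes gave the most extreme values. Of 251 tested, 13 rose and 4 fell, with log2 folds from -2.15 to 4.68, while 2.83% of all genes tested rose and 1.58% fell. Immunoglobulin kappa variable segments (82 tested) had 7 rises and 3 falls, heavy chain variable segments (71 tested) 4 and 1, and heavy chain constant regions (8 tested) 2 and 0. The 80 T cell receptor genes had 0 calls. Segments are near copies of each other and are used by expanded clones, so single values are uncertain.

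In DHX9-837 Dhx9 had levels of 8.19, 8.22 and 8.20 (difference -0.021, 95% interval -0.14 to 0.094, adjusted p = 0.908). Against the same control arrays it had 2618 calls (15.6%), 1457 up (8.67%) and 1161 down (6.91%), and since both comparisons share those arrays only the contrast between the hairpins tests a difference. That contrast called 320 genes (1.9%), of which DHX9-837 was higher in 117 (0.696%) and lower in 203 (1.21%). Of the 741 genes called for DHX9-1271, 77 differed between the hairpins. Among the 38 of these that rose with DHX9-1271, 24 were still further from control with DHX9-837, and among the 39 that fell, 30 were. S100g had DHX9-837 levels of 6.96, 6.73 and 7.64 (difference -1.47, SE 0.246, adjusted p = 0.0263), Saa1 7.69, 7.40 and 7.60 (difference -1.09, SE 0.117, adjusted p = 0.00583) and Gsdmc2 7.79, 7.81 and 7.63 (difference -1.52, SE 0.309, adjusted p = 0.0487), all lower again than DHX9-1271. Shmt2 had 9.11, 9.27 and 9.23 (difference 0.52, SE 0.0541, adjusted p = 0.00535) and Slc7a5 8.37, 8.58 and 8.47 (difference 0.43, SE 0.0649, adjusted p = 0.0196), both higher again. In other genes DHX9-837 lay nearer control or on its other side. Klf12 had DHX9-837 levels of 5.54, 5.76 and 5.65 (difference -0.67, SE 0.0987, adjusted p = 0.0196), Vip 8.01, 8.07 and 7.95 (difference -0.44, SE 0.0789, adjusted p = 0.0329), Ly6g6c 9.97, 10.47 and 9.87 (difference -1.21, SE 0.183, adjusted p = 0.0196) and Car3 9.34, 9.76 and 9.56 (difference 1.70, SE 0.22, adjusted p = 0.0122), the last above control where DHX9-1271 was below it. Per2 had 7.27, 7.27 and 7.20 (difference 0.49, SE 0.0737, adjusted p = 0.0196), still below control.

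For other leading genes the contrast between hairpins was not called, which does not show that they act alike. Nr1d1 had DHX9-837 levels of 8.10, 8.33 and 8.10 (difference -1.30, 95% interval -1.96 to -0.63, adjusted p = 0.0651), Trpv6 6.40, 6.77 and 6.26 (difference -1.33, 95% interval -1.96 to -0.71, adjusted p = 0.0512) and Asns 8.91, 9.20 and 8.98 (difference 0.45, 95% interval 0.16 to 0.73, adjusted p = 0.13). Thoc1 had 7.72, 7.76 and 7.80 (difference -0.29, 95% interval -0.43 to -0.15, adjusted p = 0.0542) and Rsad2 9.15, 9.04 and 9.34 (difference -0.57, 95% interval -0.95 to -0.18, adjusted p = 0.157). None of the 31 G2 and mitosis genes differed between hairpins at the threshold, nor did any microRNA gene named here. Of the differences given above, those of Saa1 and Shmt2 were called in each of the 9 fits that left out 1 array, and the others ended in at least 1 of them.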

How the data were processed

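The series holds 9 arrays of mouse large intestine, grouped by sample title. The authors deposited log2 levels after RMA; the submitters' processing notes name oligo 1.30.0 and R 3.1.1. For the RMA options, the definition of probe sets and the build, no statement is given in the sources used here. RMA as a method includes quantile normalization, which would hide a shift of most transcripts. Precision is limited by having 3 arrays a group. Of 24973 probe sets, 24015 had 1 symbol in the platform table, 0 had several and 958 were not listed; 23922 Entrez numbers were found in RefSeq and 0 symbols changed. Where a symbol had several probe sets the brightest one stood for it, giving 24011 genes. A level filter at the 30th percentile of the gene means (5.28) kept 16808 genes.

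A group-means model over all 9 arrays was fitted in limma 3.58.1 (R 4.3.3; 6 residual and 2.84 prior degrees of freedom), two-sided, with Benjamini-Hochberg adjustment over all genes tested; genes passed at an adjusted p under 0.05, whatever their fold. The fit was also run on simulated data with the same spread in every group, unlike the arrays here. That run checks the code only. The groups compared and the 39 gene lists (719 genes, 42 without a probe set named here) were chosen with earlier results of these data known, so lists are described by counts and medians only. Named were Dhx9, the 20 largest rises and falls among called genes whose arrays did not overlap control, the 10 smallest p-values, called list members, defining members not called, and the 6 largest differences between hairpins in each direction; predicted genes, small RNAs, antigen receptor segments and olfactory receptors were counted, and microRNA and TREX genes were added after their values were seen. Alternatives covered filters, features, scaling, moderation, array weights, a fit of the 6 arrays, a replicate block, a fold limit (1.5) and fits without each array. Sequences are RefSeq entries (GRCm38.p6).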

Additional observations from a re-analysis of the deposited data

Results flagged for a closer look

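The effects of the hairpins differed from each other, by the limma contrast of DHX9-837 minus DHX9-1271 (adjusted p under 0.05), in 34 of the genes named above. Since the 6 largest differences in each direction were named because of this contrast, the 34 is not a fair share. The contrast called 320 of all genes tested (1.9%) and 77 of the 741 genes called for DHX9-1271. For genes that fell with DHX9-1271 and were lower again with DHX9-837, the difference on the log2 scale was -1.52 for Gsdmc2, -1.47 for S100g, -1.22 for Gsdmc3, -1.09 for Saa1, -0.82 for Pck1, -0.72 for Sycn, -0.64 for Apol10a, -0.51 for Cyp3a13, -0.48 for Ces2e, -0.47 for St6galnac6, -0.44 for Slc8a1, -0.36 for Slc26a3 and -0.32 for Cyp2d26. For genes that rose with DHX9-1271 and were lower with DHX9-837, it was -1.21 for Ly6g6c, -0.67 for Klf12, -0.45 for Retsat, -0.44 for Vip, -0.35 for Best2 and -0.30 for Kif13b. For genes that rose and were higher again, it was 0.86 for Lpcat4, 0.75 for Ephx1, 0.59 for Sprr1a, 0.52 for Shmt2, 0.43 for Slc7a5, 0.40 for Nop2, 0.37 for Pnpla1, 0.34 for Slc3a2, 0.34 for Krt18 and 0.28 for Mybbp1a. For genes that fell and were higher with DHX9-837, it was 1.70 for Car3, 0.83 for Ms4a10, 0.66 for Olr1, 0.62 for Rab6b and 0.49 for Per2. Of these 34 differences 6 were called in each of the 9 fits that left out 1 array (Saa1, Sycn, St6galnac6, Slc8a1, Shmt2 and Ephx1), and 7 were called without DHX9-1271 replicate 3.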

How the results depend on the processing

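The fall of Dhx9 was called in all 20 other settings (log2 fold -1.04 to -0.97). Of 139 called genes named above 0 changed direction in any setting, but in most settings this was fixed in advance. Leaving out 1 array could not change it, since the arrays of every called gene lay on 1 side of all control arrays. Other filters, moderation and the fold limit left the log2 fold as it was. Of the 139 genes, 41 kept the call in every setting except the 1.5-fold limit, and 98 lost it in at least 1 fit without 1 array. Genes up (475), genes down (266) and genes called between hairpins (320) became 254, 154 and 140 with no level filter and 255, 152 and 144 with all probe sets as features, both of which adjust over more tests. They became 264, 143 and 168 with the replicate block. Deviations of same-numbered arrays of the groups compared had correlations of -0.13, -0.19 and 0.011, and those of other-numbered arrays reached 0.175. With 3 arrays a group, these values cannot decide whether the numbers pair the samples. With a 1.5-fold limit the counts up, down and between hairpins were 3, 8 and 1. Fitting only the 6 arrays gave 207 up and 129 down. The count between hairpins was 493 with the filter at the median gene, 541 with trend moderation and 719 with array weights; the cause was not tested. Leaving out 1 array gave 77 to 431 up, 51 to 283 down and 28 to 360 between hairpins, lowest without DHX9-1271 replicate 3. With 3 arrays a group, the number of arrays limits which small differences could be called.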
